A study of Sus scrofa with 20 samples.

Results

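Amino acid transporters of the plasma membrane and lysosome were examined in pig longissimus muscle, for 10 genes named around the sodium-coupled transporter SLC38A4. All probe sets that the array annotation gives under 1 of these gene symbols were taken, which gave 25 of the 45922 porcine probe sets tested (10 of 13609 named genes), with 1 to 6 probe sets per gene. The set was chosen by the breed difference in SLC38A4 signal on these same arrays. That difference is therefore described without a test, and the other 9 genes were joined to it by function.

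The arrays compared Duroc pigs with PiNN pigs, which are Pietrain animals homozygous negative for malignant hyperthermia syndrome, the disorder caused by a variant of the calcium release channel gene RYR1. Each breed was represented by 10 animals with 1 Affymetrix Porcine Snowball array each. The animals are labelled as adult, the purebred animals came from commercial lines, and both breeds received the same diet at the same fattening station. PiNN animals came from a line in which the RYR1 variant segregates. The labels place the muscle sampling 24 h before slaughter, whereas the methods describe tissue for DNA as taken after slaughter, and sex is not among the labels of the arrays. Sex and age are listed in the study for its methylation animals, some of which are on the arrays, but without the animal numbers, so they were not used here. Values are log2 probe set signals, in which a difference of 1 is a doubling. Differences are Duroc minus PiNN.

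Amino acids cross the muscle membrane through several families of carriers. SLC38A1, SLC38A2 and SLC38A4 belong to the sodium-coupled system A carriers, which concentrate small neutral amino acids such as alanine and, in the case of SLC38A1 and SLC38A2, glutamine inside the cell. SLC7A1 and SLC7A2 carry the cationic amino acids arginine and lysine. SLC7A5 and SLC7A8 exchange large neutral amino acids such as leucine, and each works only when joined to the heavy chain SLC3A2, which brings it to the cell surface. SLC1A5 exchanges neutral amino acids including glutamine, and SLC36A1 moves small amino acids out of lysosomes together with protons. In mice, Slc38a4 is an imprinted gene expressed from the paternal copy.

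All 20 arrays were used. Their medians lay between 4.61 and 4.73, and any pair of arrays correlated at 0.953 to 0.986. The mean of the 69 probe sets that the array names as background controls was 3.93, with single arrays between 3.78 and 4.21, and PiNN animal 49 had the highest value. Signals at or below this level carry little information on a transcript. Of the 25 transporter probe sets, 18 had a mean above it and 7 did not. The 10 measured muscle fibre markers, among them ACTA1, CKM and TTN, were all above it. Over the whole array, 1917 probe sets, or 4.17%, differed between breeds at an adjusted p under 0.05 (limma, Benjamini-Hochberg over all 45922), with 2.76% of all probe sets higher in Duroc and 1.41% lower. Of the probe sets that passed, 66.1% were thus higher in Duroc, against 48.5% in a fit with array background as a term. The median difference over all probe sets was -0.02.

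SLC38A4 had a higher signal in Duroc muscle at both of its probe sets that measured above background. The gene lies on chromosome 5 of the porcine genome (Sscrofa11.1) from 77411610 to 77489542. At SNOWBALL_022950_st the Duroc animals had a lowest signal of 4.96, a median of 5.99 and a highest of 6.71, against 3.33, 5.08 and 5.66 in the PiNN animals. The breeds overlapped, since 6 of the 10 Duroc animals lay above every PiNN animal and 4 of the 10 PiNN animals below every Duroc animal. The mean was 5.87 ± 0.66 for the Duroc animals and 4.73 ± 0.70 for the PiNN animals (SD, n = 10 each). The difference was 1.14 (standard error 0.27), a fold of 2.20.

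At the second probe set, SNOWBALL_037243_st, the Duroc signals had a lowest value of 5.26, a median of 6.10 and a highest of 7.26, against 4.69, 5.32 and 5.49 in PiNN. Of the Duroc animals, 8 of 10 lay above every PiNN animal, and only animals 31 and 38 fell within the PiNN range. The mean was 6.11 ± 0.67 for the Duroc animals and 5.20 ± 0.30 for the PiNN animals (SD, n = 10 each), with a difference of 0.91 (standard error 0.21), a fold of 1.88. The third probe set, SNOWBALL_030241_st, was below background on every array, at 1.58 in Duroc and 1.57 in PiNN, so it gave no measure of the gene. The plot of SLC38A4 by probe set shows these levels animal by animal.

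**Figure D1:**
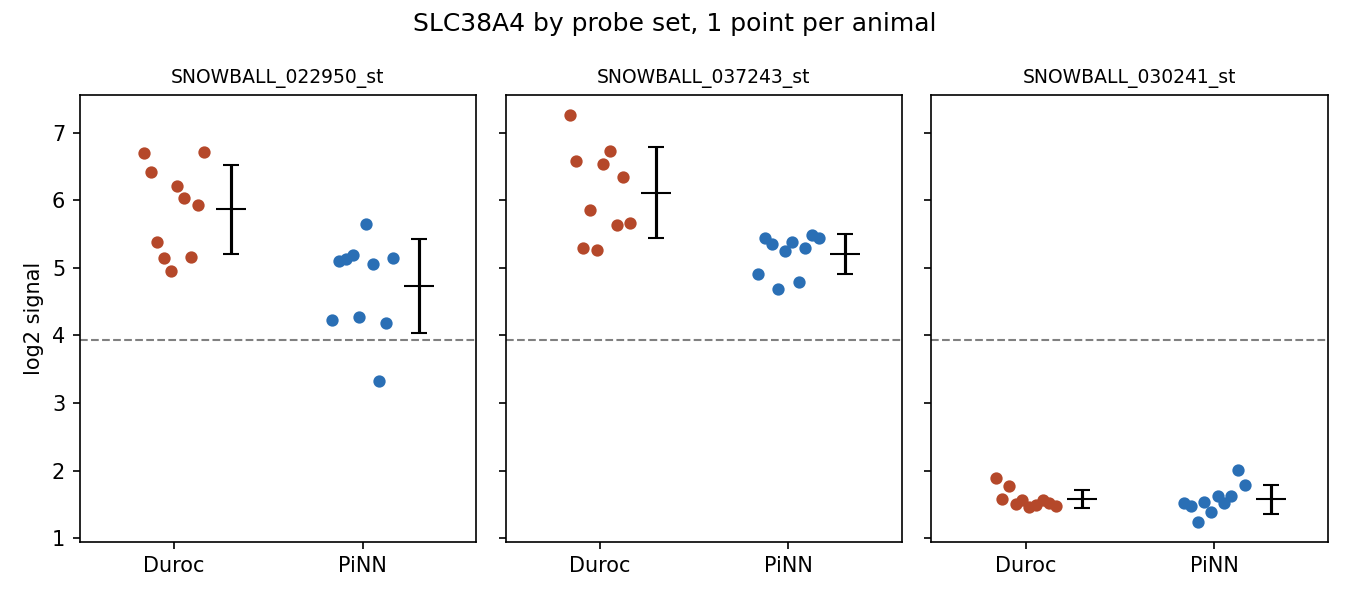
Log2 signal (vertical axis) of the 3 SLC38A4 probe sets in 10 Duroc and 10 PiNN animals, with 1 point per animal, a black bar for the mean ± SD of the breed and a dashed line for the mean background of 3.93. Duroc signals were higher with overlap at the left and middle probe sets, and the right one stayed below background in both breeds.

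The size of the difference changed little with the processing. It ran from 1.08 to 1.14 for SNOWBALL_022950_st and from 0.90 to 0.97 for SNOWBALL_037243_st over 7 other ways of normalizing or fitting, which include a fit with array background as a term. When single animals were left out, it ran from 0.98 to 1.24 and from 0.78 to 1.003. In PiNN, 8 of 10 signals of SNOWBALL_022950_st were above the background of their own array, and animals 47 and 49 were not, so the size of the difference at this probe set rests partly on values near the floor.

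SLC38A4 was also among the more variable transcripts between animals of the same breed. The within-breed SD, pooled over both breeds, was 0.68 for SNOWBALL_022950_st and 0.52 for SNOWBALL_037243_st, which is more than that of 98.7% and 95.8% of the probe sets above background. At SNOWBALL_037243_st this spread was mainly that of Duroc, with an SD of 0.67 against 0.30 in PiNN. In Duroc the probe sets ordered most animals alike, with animals 24, 28, 42 and 43 above the Duroc median at both and animals 31, 32, 38 and 46 below it at both. Animal 59 was highest at SNOWBALL_022950_st and below the median at SNOWBALL_037243_st. Animal 58 was below the median at the first and above it at the second. Pearson's r between the probe sets was 0.70 in Duroc (permutation p = 0.0282, adjusted p = 0.0564 over the 2 breeds) and Spearman's rho was 0.64 (permutation p = 0.0551, adjusted p = 0.110). Without the 2 Duroc animals farthest from the median, r was 0.61. In PiNN no such order was seen, with r = -0.07 (permutation p = 0.859, adjusted p = 0.859), rho = -0.02 (permutation p = 0.973, adjusted p = 0.973) and r = 0.24 without the 2 farthest animals. The range of SNOWBALL_037243_st in PiNN was narrow, from 4.69 to 5.49, as the plot of one probe set against the other shows.

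**Figure D2:**
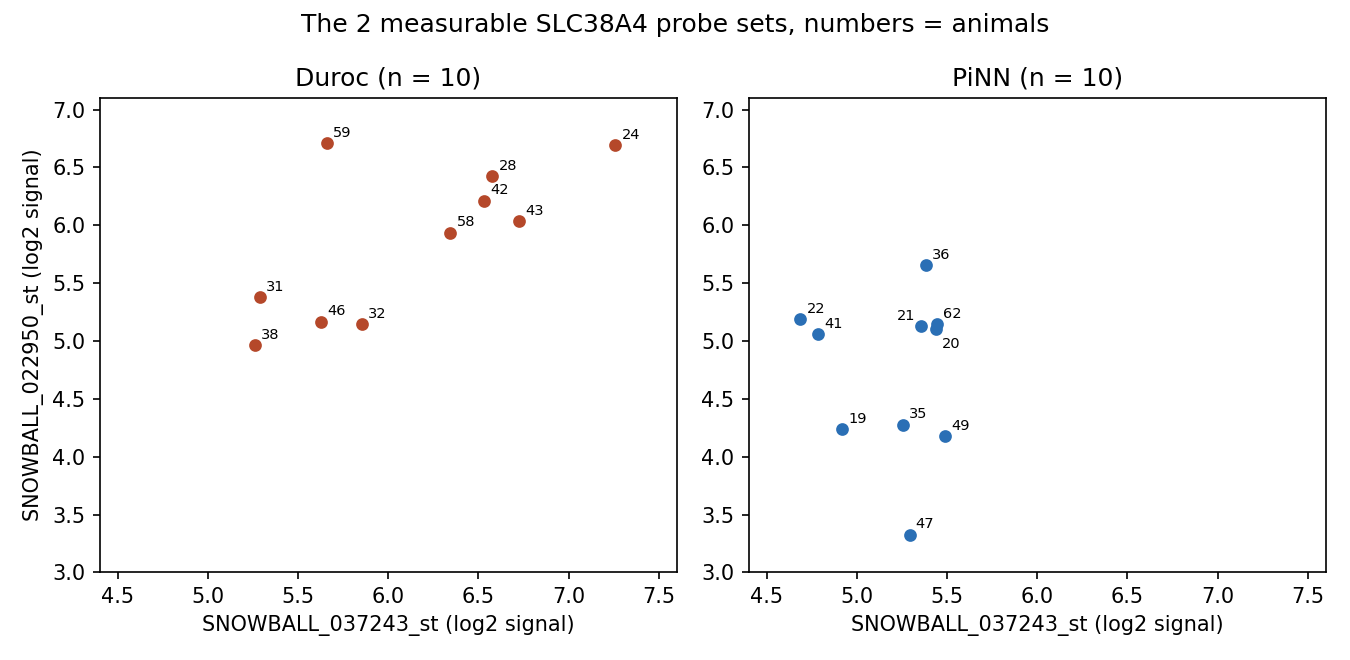
Log2 signal of SLC38A4 at SNOWBALL_022950_st (vertical axis) against SNOWBALL_037243_st (horizontal axis) in Duroc (left) and PiNN (right), with 1 numbered point per animal. Duroc animals spread along both axes together except animal 59, whereas PiNN animals spread from 3.33 to 5.66 on the vertical axis with little spread on the horizontal one.

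Among the other 9 genes, 0 of 22 probe sets passed the test over all probe sets with limma, and 1, that of SLC38A2, passed with the ANOVA of the methods (3.33% of all probe sets passed there). An unadjusted p under 0.05 was found for 9 of the 22, or 40.9%, against 17.3% of all probe sets. These 9 belong to 5 genes, and 4 of them are probe sets of SLC3A2, which measure the same gene. Of the 9, 3 had a higher mean in Duroc and 6 a lower one. The median size of the difference was 0.16 over the 22 probe sets, against 0.11 over the array. At none of the 25 transporter probe sets, SLC38A4 included, were the breeds without overlap (0 of 25, against 0.122% over the array). The plot of all 25 differences sets them side by side.

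**Figure D3:**
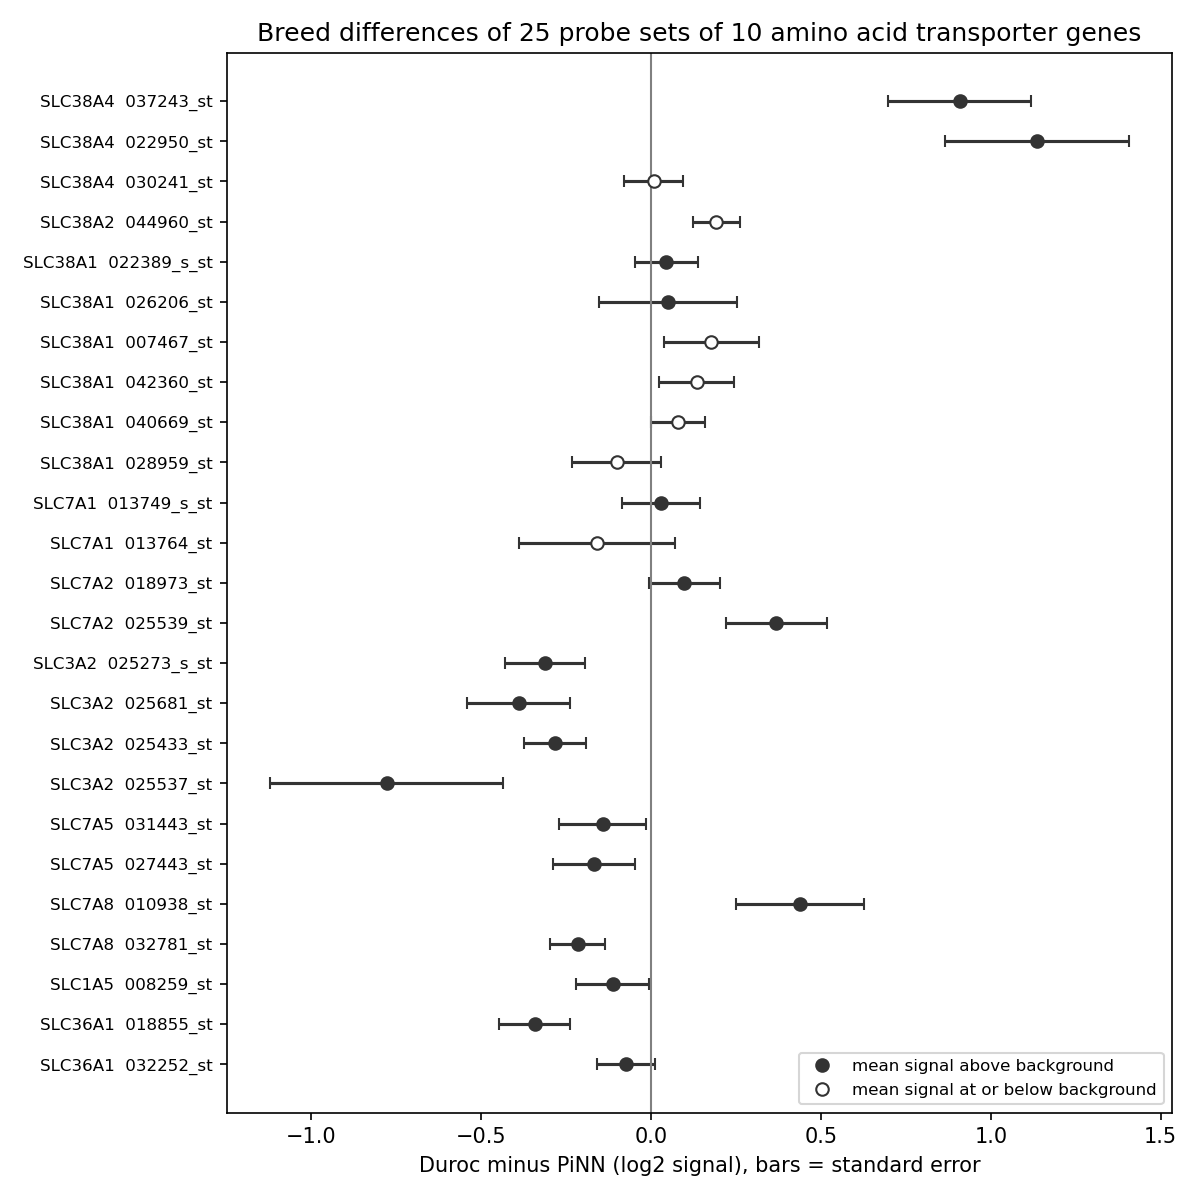
Duroc minus PiNN difference in log2 signal (horizontal axis) for each of the 25 probe sets, ordered by gene, with the standard error as a bar. Filled points had a mean signal above background and open points did not. The 2 measurable SLC38A4 probe sets lie at 0.91 and 1.14, the 4 SLC3A2 probe sets between -0.28 and -0.78, and the others between -0.34 and 0.44.

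SLC38A1 and SLC38A2, the carriers closest to SLC38A4 in function, lie next to it on chromosome 5, from 77009840 to 77076723 and from 77113491 to 77127715. Neither passed the test. SLC38A2, the system A carrier that muscle cells induce when amino acids are scarce, had 1 probe set, with a lowest signal of 3.71, a median of 3.86 and a highest of 4.05 in Duroc, against 3.50, 3.68 and 3.86 in PiNN. Every Duroc animal exceeded the PiNN median. The difference was 0.19 (95% confidence interval 0.05 to 0.34, adjusted p = 0.126). Signals were above the background of their own array in 4 Duroc and 0 PiNN animals, so neither the level nor the size of the difference was measured well.

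SLC38A1 had 6 probe sets, of which 4 had a mean below background. The brightest, SNOWBALL_022389_s_st, had a mean of 5.94 ± 0.18 for the Duroc animals and 5.89 ± 0.22 for the PiNN animals (SD, n = 10 each), a difference of 0.04 (95% confidence interval -0.15 to 0.24, adjusted p = 0.873). SNOWBALL_026206_st differed by 0.05 (95% confidence interval -0.37 to 0.47, adjusted p = 0.940), and its animals were spread over more than 1 unit in both breeds, from 4.30 to 5.56 in Duroc and from 3.75 to 5.59 in PiNN. The interval at the brightest probe set ends at 0.24, below the SLC38A4 differences. This is no test of SLC38A1 against SLC38A4, because SLC38A4 was chosen for its difference. The 4 dim probe sets of SLC38A1 differed by -0.10 to 0.18.

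Position was then used as a property on which the choice of genes did not rest. Within 1000 kb on either side of SLC38A4 the annotation places 30 other genes, of which 15 are named on the array, with 41 probe sets, 7 of them of SLC38A1 and SLC38A2. Of the 41, 4 passed the test, or 9.76%, against 4.17% over the array. They lie in 3 genes, all 479 to 652 kb beyond SLC38A4 on the side away from SLC38A2. RPAP3, a co-chaperone of RNA polymerase assembly, was higher in Duroc by 0.47 (adjusted p = 0.0309) at 1 of its 3 probe sets, and the other 2, with a mean below background, differed by -0.06 and -0.21. ENDOU, an endoribonuclease, was lower in Duroc, with a difference of -0.40 (adjusted p = 0.0405). The heme transporter SLC48A1 was lower in Duroc at both of its probe sets, with differences of -0.35 (adjusted p = 0.0242) and -0.31 (adjusted p = 0.0466).

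The named genes nearest to SLC38A4 were SLC38A2 on the side of lower coordinates, at -284 kb, and AMIGO2, a cell adhesion protein, on the other, at 153 kb. The signal of AMIGO2 was 4.46 in the Duroc and 4.53 in the PiNN animals, with a difference of -0.07 (adjusted p = 0.894). The median difference of the 41 neighbouring probe sets was -0.016, against -0.019 over the array. With single animals left out, the adjusted p rose above 0.05 in 15 of 20 fits for ENDOU, 16 for SNOWBALL_030932_st of SLC48A1 and 9 for RPAP3. The second probe set of SLC48A1 passed in all 20. Among the 7 other settings, ENDOU lost the call in 2 and RPAP3 and SNOWBALL_030932_st in 1 each, which was centring on array medians (adjusted p up to 0.0593). The plot of genes by distance from SLC38A4 gives all values.

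**Figure D4:**
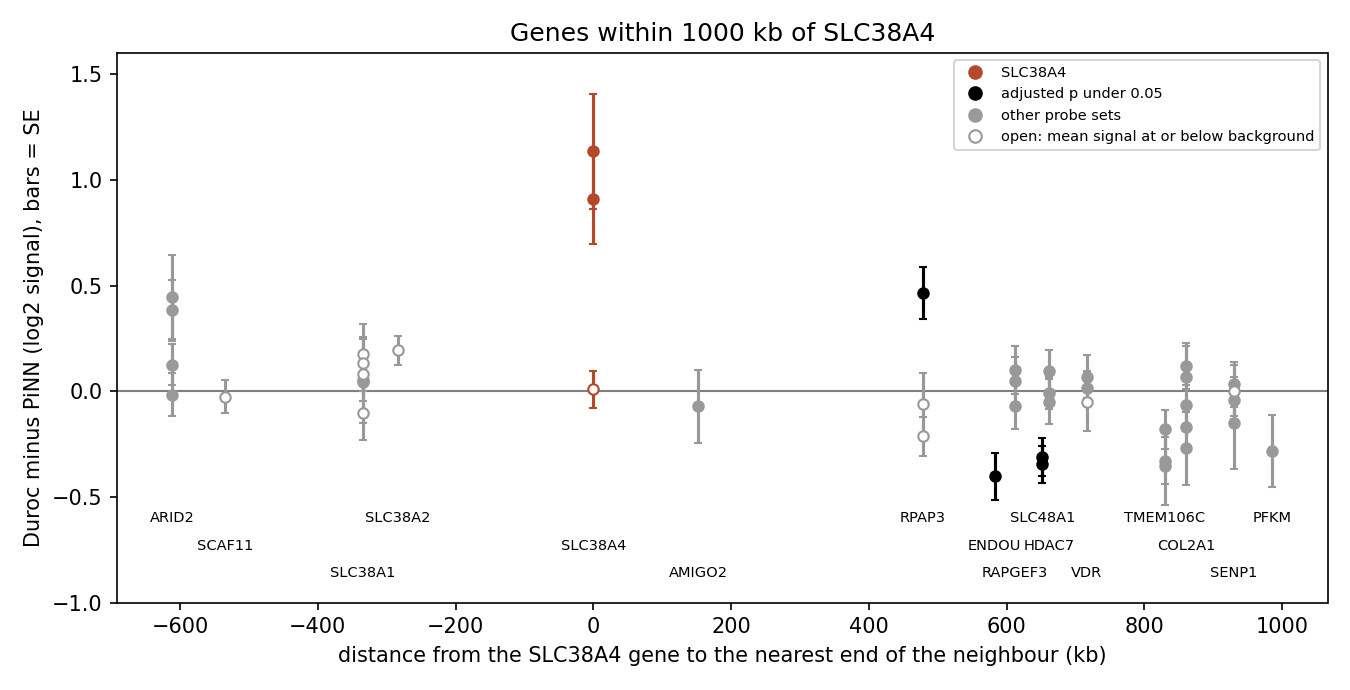
Duroc minus PiNN difference in log2 signal (vertical axis, bars are standard errors) of named genes within 1000 kb of SLC38A4, by distance in kb from SLC38A4 (horizontal axis). Points are probe sets, filled where the mean signal was above background. The 2 SLC38A4 probe sets at 0.91 and 1.14 stand above their neighbours, of which RPAP3, ENDOU and SLC48A1 passed the test.

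The cationic amino acid carriers were measured above background in both breeds, and neither passed the test. SLC7A2 (chromosome 17, 5191973 to 5271849), the carrier of arginine and lysine found in muscle and liver, had a signal at SNOWBALL_018973_st of 9.73 ± 0.22 for the Duroc animals and 9.63 ± 0.24 for the PiNN animals (SD, n = 10 each), a difference of 0.10 (95% confidence interval -0.12 to 0.31, adjusted p = 0.711). At its other probe set, SNOWBALL_025539_st, signals had a lowest value of 6.75, a median of 7.32 and a highest of 7.78 in Duroc, against 6.26, 6.95 and 7.25 in PiNN, with 6 of 10 Duroc animals above every PiNN animal. That difference was 0.37 (95% confidence interval 0.06 to 0.68, adjusted p = 0.180). The probe sets of SLC7A2 thus shared a sign and differed in size. A fit with array background as a term gave 0.22 for the second difference.

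SLC7A1 (chromosome 11, 6538053 to 6604654), the more widely expressed cationic carrier, had a signal of 5.49 ± 0.18 for the Duroc animals and 5.45 ± 0.32 for the PiNN animals (SD, n = 10 each) at SNOWBALL_013749_s_st. The difference was 0.03 (95% confidence interval -0.21 to 0.27, adjusted p = 0.936). Its second probe set was below background on every array.

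The heavy chain SLC3A2 (chromosome 2, 8892071 to 8919070), the shared partner of the leucine exchangers, had a lower mean signal in Duroc at all 4 of its probe sets, none of which passed the test alone. At SNOWBALL_025433_st the lowest, median and highest signals were 6.68, 6.98 and 7.04 in Duroc, against 6.87, 7.26 and 7.65 in PiNN. The PiNN median lay above all 10 Duroc animals, and 7 of 10 PiNN animals above every Duroc animal. The difference was -0.28 (95% confidence interval -0.47 to -0.09, adjusted p = 0.0856).

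The bright probe sets SNOWBALL_025273_s_st and SNOWBALL_025681_st of SLC3A2 gave differences of -0.31 (95% confidence interval -0.56 to -0.07, adjusted p = 0.147) and -0.39 (95% confidence interval -0.70 to -0.07, adjusted p = 0.165). At each, 9 of 10 Duroc animals lay below the PiNN median, and Duroc animal 59 was the exception. PiNN animals 47 and 49 were the lowest of their breed at both. The dim probe set SNOWBALL_025537_st differed by -0.78 (95% confidence interval -1.49 to -0.07, adjusted p = 0.232). Its Duroc animals were spread from 1.45 to 5.40, with 3 of them below the background of their own array. Some of its values were identical, at 3.92 in Duroc animals 32, 38 and 42 and at 4.22 in Duroc animal 31 and PiNN animal 19. Without Duroc animal 24, which had the signal of 1.45, the difference of this probe set was -0.50.

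When the 4 probe sets were averaged per animal, SLC3A2 had a signal of 6.87 ± 0.33 for the Duroc animals and 7.31 ± 0.30 for the PiNN animals (SD, n = 10 each). The difference of -0.44 (95% confidence interval -0.71 to -0.17) had an adjusted p of 0.0424 from limma over 13609 genes, of which 8.02% passed and 3.34% were lower in Duroc. The call for SLC3A2 thus depended on whether probe sets were tested singly or averaged. It also depended on single animals, since the mean passed in 8 of 20 fits with an animal left out and not in the other 12, which were those without Duroc animals 24, 32, 38, 42, 43, 46 or 58 or PiNN animals 20, 21, 22, 36 or 41. Over the 20 fits the difference ran from -0.50 to -0.37, and was -0.37 without Duroc animal 24, and the adjusted p from 0.0210 to 0.0872. The mean gave equal weight to the dim SNOWBALL_025537_st, which differed by -0.78. The brighter probe sets differed by -0.28, -0.31 and -0.39, each smaller in size than the -0.44 of the mean. Among the single probe sets, SNOWBALL_025433_st passed with array weights (adjusted p = 0.0308) and when PiNN animal 49 (adjusted p = 0.0448) or PiNN animal 62 (adjusted p = 0.0388) was left out. The plot of transporters other than SLC38A4 shows the animals.

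Red blood cell markers were measured for 5 genes with 7 probe sets, and 4 of the genes were above background. A single probe set passed the test, or 14.3%, against 4.17% over the array. At the brightest probe set of each gene the differences were all below 0, from -0.01 for SLC4A1 to -1.16 for HBB. The linear signals of these probe sets were also summed, so that bright genes weigh most. The log2 of this sum was between 7.20 and 8.71 in Duroc and between 7.82 and 9.44 in PiNN. The heme synthesis enzyme ALAS2 was lower in Duroc (-0.51, adjusted p = 0.0327), and lost the call in 8 of 20 fits with an animal left out and in 2 of 7 other settings (adjusted p up to 0.0673). Its mean was close to background, at 3.91 in Duroc and 4.42 in PiNN. Signals of ALAS2 were above the background of their own array in 5 Duroc and 10 PiNN animals, so the size of its difference rests partly on values near the floor. The globin gene HBB did not pass (adjusted p = 0.0527). In bulk tissue, fewer cells of a type and less RNA per cell cannot be told apart, and the part of red blood cells in the values of SLC3A2 was not tested.

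**Figure D5:**
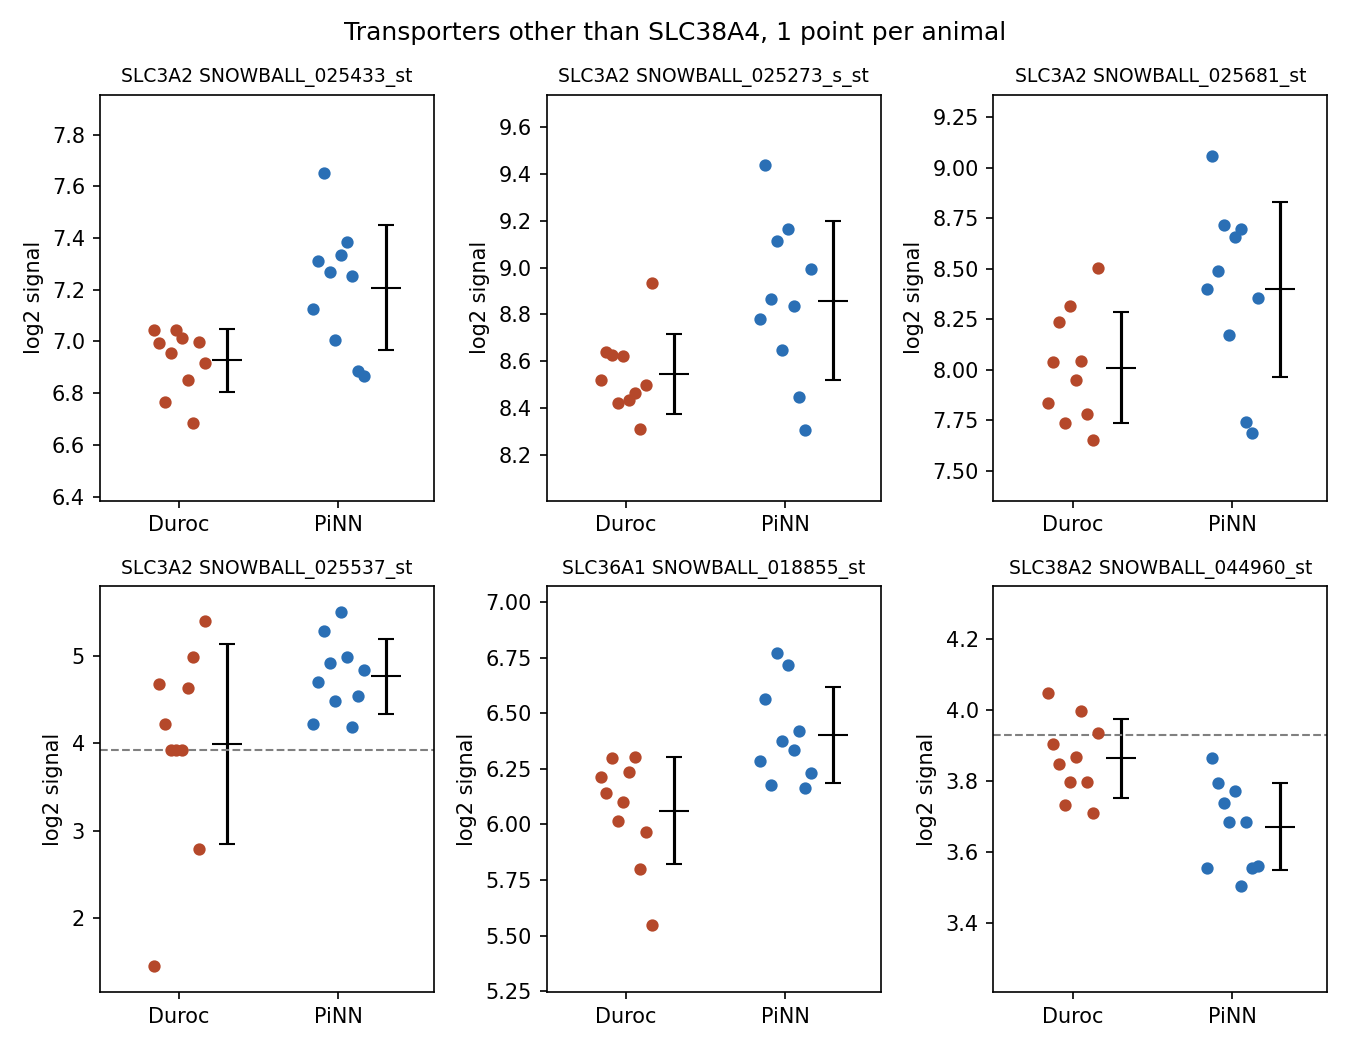
Log2 signal (vertical axis, scaled to each panel) of the 4 SLC3A2 probe sets, of SNOWBALL_018855_st of SLC36A1 and of the probe set of SLC38A2 in Duroc and PiNN, with 1 point per animal, a black bar for mean ± SD (n = 10 each) and a dashed line for the mean background of 3.93 where it falls in the panel. SLC3A2 and SLC36A1 had lower means in Duroc and SLC38A2 a higher one, with overlap in each panel.

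The light chains SLC7A5 and SLC7A8, which pair with SLC3A2, did not pass the test. SLC7A5 (chromosome 6, 1545940 to 1574298, entered as a non-coding RNA in that annotation), the leucine exchanger of growing cells, had signals of 6.68 ± 0.35 for the Duroc animals and 6.83 ± 0.23 for the PiNN animals (SD, n = 10 each) at its brighter probe set. The differences at its probe sets were -0.14 (95% confidence interval -0.41 to 0.12, adjusted p = 0.645) and -0.17 (95% confidence interval -0.42 to 0.08, adjusted p = 0.528). A fit with array background as a term gave -0.044 and -0.061.

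For SLC7A8 (chromosome 7, 75854700 to 75921931), the related exchanger of epithelia and muscle, the probe sets disagreed in sign. SNOWBALL_010938_st had a lowest signal of 8.42, a median of 9.18 and a highest of 9.55 in Duroc, against 7.80, 8.77 and 9.29 in PiNN, and differed by 0.44 (95% confidence interval 0.05 to 0.83, adjusted p = 0.216). SNOWBALL_032781_st, close to background in both breeds, had 4.05, 4.24 and 4.48 in Duroc, against 4.02, 4.46 and 4.67 in PiNN. It differed by -0.21 (95% confidence interval -0.38 to -0.05, adjusted p = 0.146), and by -0.26 (adjusted p = 0.0442) without PiNN animal 20, the lowest of the PiNN signals. No direction can be given for the gene.

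SLC36A1 (chromosome 16, 71540646 to 71589532), the proton-coupled carrier of the lysosome, had the lowest adjusted p among the 22 single probe sets in limma. On gene means its adjusted p was 0.0791, above that of SLC3A2 and of SLC38A2 (0.0591). At SNOWBALL_018855_st the lowest, median and highest signals were 5.55, 6.12 and 6.30 in Duroc, against 6.16, 6.35 and 6.77 in PiNN. The PiNN median lay above all 10 Duroc animals, and 6 of them below every PiNN animal. The difference was -0.34 (95% confidence interval -0.56 to -0.13, adjusted p = 0.0624). It passed when only probe sets above background were tested (adjusted p = 0.0431), when arrays were weighted (adjusted p = 0.0273), and without Duroc animal 31 (adjusted p = 0.0430) or PiNN animal 49 (adjusted p = 0.0473). Its other probe set, just above background, differed by -0.07 (95% confidence interval -0.25 to 0.10, adjusted p = 0.747).

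SLC1A5 (chromosome 6, 52647432 to 52661464) had 1 probe set, with a signal of 5.73 ± 0.19 for the Duroc animals and 5.84 ± 0.28 for the PiNN animals (SD, n = 10 each). The difference was -0.11 (95% confidence interval -0.34 to 0.11, adjusted p = 0.674). The breeds overlapped, with 3 PiNN animals above every Duroc animal and 2 Duroc animals below every PiNN animal.

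Whether SLC38A4 varied together with the other transporters among animals of the same breed was then asked, which does not use the difference between breeds. The brightest probe set of each gene was used, and 18 relations were computed, 9 in each breed. With this permutation test 0 of 18 had a p under 0.05, adjusted or not, by Pearson or Spearman. The highest was with SLC38A2 in Duroc (Pearson's r = 0.58, permutation p = 0.0799, adjusted p = 0.754; Spearman's rho = 0.60, permutation p = 0.0734, adjusted p = 0.944; n = 10), and it was 0.30 without the 2 animals farthest from the median. In PiNN the same relation was r = 0.28 (permutation p = 0.419, adjusted p = 0.754) and rho = 0.21 (permutation p = 0.560, adjusted p = 0.944; n = 10), with r = 0.30 without the 2 farthest animals. The signal of SLC38A2 was above the background of its own array in 4 Duroc and 0 PiNN animals, so this relation was measured poorly. The other relations had r between -0.44 and 0.48. Without the 2 farthest animals some of these were larger in size, at 0.74 for SLC7A8 and -0.72 for SLC1A5 in PiNN and -0.64 for SLC38A1 in Duroc. With the mean of all probe sets of each gene, r was 0.72 for SLC38A2 in Duroc, and 0.62 for both SLC7A8 and SLC3A2 in PiNN. These values were not tested.

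The genes whose signal was most like that of SNOWBALL_037243_st across the 20 animals, after the mean of each breed was subtracted, were LBH, a transcriptional cofactor (r = 0.78), SH3BGRL2 (r = 0.76), the glycosyltransferase GALNT7 (r = 0.72), the RNA helicase DDX17 (r = 0.70) and the syntenin relative SDCBP2 (r = 0.69). They were the highest of 18587 named probe sets above background and are given as a description. In all 5 the likeness was higher in Duroc (r from 0.83 to 0.92) than in PiNN (r from -0.01 to 0.46), and with the other SLC38A4 probe set it was between 0.23 and 0.53. The ranking weighted Duroc more, because the SD of SNOWBALL_037243_st was 0.67 in Duroc and 0.30 in PiNN. A higher r in Duroc was thus favoured by the choice of genes and is no result about the breeds. The r values also share the arrays with SLC38A4. The 2 SLC38A4 probe sets had r = 0.42 with each other on the same measure. None of the 5 genes passed the test between breeds, with differences from -0.07 to 0.21.

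Of 41 other amino acid transporter genes of the same families, 33 were on the array with 75 probe sets, 48 of them above background. An unadjusted p under 0.05 was found for 12 of the 75, against 17.3% of all probe sets. A single probe set passed, or 1.33%, against 4.17% over the array. The one that passed was that of SLC7A7, a light chain that exports cationic amino acids. At SNOWBALL_010603_st its signal had a lowest value of 3.67, a median of 3.91 and a highest of 4.17 in Duroc, against 4.03, 4.30 and 4.62 in PiNN, close to background in both. The difference was -0.38 (standard error 0.09, adjusted p = 0.0147). The brighter probe set of SLC7A7 differed by -0.26 (95% confidence interval -0.48 to -0.04, adjusted p = 0.187). The median difference of the list was -0.03.

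The supply of leucine and arginine is relayed at the lysosome by the Rag GTPases, which recruit the growth kinase complex mTORC1. Of 42 genes of this pathway, 29 were measured with 50 probe sets. Among these, 5 probe sets, or 10%, passed, against 4.17% over the array, with 3 genes higher and 2 lower in Duroc. MIOS, a subunit of the GATOR2 complex that relays amino acid supply, had a signal of 6.90 ± 0.24 for the Duroc animals and 6.34 ± 0.31 for the PiNN animals (SD, n = 10 each), a difference of 0.56 (standard error 0.12, adjusted p = 0.0101). Its other probe set differed by -0.27 (adjusted p = 0.419), so the direction rests on 1 of 2.

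RRAGD, one of the Rag GTPases, had 5.32 ± 0.37 for the Duroc animals and 4.76 ± 0.33 for the PiNN animals (SD, n = 10 each). It differed by 0.56 (standard error 0.15, adjusted p = 0.0325), and its other probe sets by 0.17 and 0.23. RPS6KB1, the ribosomal protein kinase downstream of mTORC1, had 8.31 ± 0.21 for the Duroc animals and 7.92 ± 0.21 for the PiNN animals (SD, n = 10 each), a difference of 0.39 (standard error 0.10, adjusted p = 0.0260), with 0.57 (adjusted p = 0.120) at its other probe set. The inhibitors of the pathway TBC1D7 and TSC1, which sit in 1 complex, were lower in Duroc. TBC1D7 had 5.73 ± 0.22 for the Duroc animals and 6.17 ± 0.23 for the PiNN animals (SD, n = 10 each), and differed by -0.45 (standard error 0.10, adjusted p = 0.0141). TSC1, named after its values were seen because the rule took 4 genes per list, differed by -0.32 (standard error 0.09, adjusted p = 0.0370), and its 3 other probe sets by -0.21, -0.17 and -0.02. The median of the list was -0.10. With single animals left out, RRAGD lost the call in 10 of 20 fits, TSC1 in 12 and RPS6KB1 in 3, whereas MIOS and TBC1D7 passed in all 20. In the 7 other settings RRAGD lost it in 2 (adjusted p up to 0.0600) and TSC1 in 1 (adjusted p = 0.0501).

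Shortage of amino acids activates the kinase GCN2 and the transcription factor ATF4, which is known to induce SLC38A2, SLC7A1, SLC7A5 and SLC3A2. Of 25 genes of this response, 24 were measured with 38 probe sets. Both probe sets that passed, or 5.26% against 4.17% over the array, belong to CEBPB, a transcription factor that binds with ATF4. Its signal at SNOWBALL_000431_st was 7.35 ± 0.20 for the Duroc animals and 7.92 ± 0.32 for the PiNN animals (SD, n = 10 each), a difference of -0.56 (standard error 0.12, adjusted p = 0.00769), and the other probe set differed by -0.55 (standard error 0.14, adjusted p = 0.0216). Both passed without any single animal. The other genes did not pass, and the median of the list was -0.05.

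Enzymes that use glutamine, branched-chain amino acids and arginine were measured for 25 of 29 genes with 59 probe sets. Of these, 2 passed, or 3.39% against 4.17% over the array, 1 each in DBT and PPM1K, and both were higher in Duroc. DBT, the core of the branched-chain keto acid dehydrogenase, had 7.35 ± 0.16 for the Duroc animals and 6.93 ± 0.24 for the PiNN animals (SD, n = 10 each), a difference of 0.42 (standard error 0.10, adjusted p = 0.0135) that passed without any single animal. PPM1K, the phosphatase that activates this enzyme, differed by 0.62 (standard error 0.17, adjusted p = 0.0432). It lost the call in 13 of 20 fits with an animal left out and in 3 of 7 other settings (adjusted p up to 0.0854). The other probe set of PPM1K above background differed by 0.11 (adjusted p = 0.658), and the remaining probe sets of both genes were below background. The median of the list was 0.00.

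Markers of other cell types are given for comparison with SLC38A4. Of 6 adipocyte markers, all measured above background, 4 had a higher mean in Duroc and 0 passed. Their summed level is the log2 of the linear signals added over the brightest probe set of each gene. It ran from 9.57 to 11.10 in Duroc and from 9.44 to 11.80 in PiNN. The median difference of the 18 adipocyte probe sets was 0.29. Endothelial markers had a summed level of 9.25 to 9.87 in Duroc and 9.24 to 9.84 in PiNN, fibroblast markers 11.95 to 12.68 in Duroc and 11.88 to 12.63 in PiNN, and leukocyte markers 6.50 to 7.30 in Duroc and 6.72 to 7.52 in PiNN. Satellite cell markers had 7.51 to 8.08 in Duroc and 7.72 to 8.08 in PiNN. At an adjusted p under 0.05 no probe set of these lists passed (limma), against 4.17% over the array. An unadjusted p under 0.05 was found for 17.3% of all probe sets. The counts at that limit were 2 of 18 for adipocyte, 3 of 14 for endothelial, 2 of 14 for fibroblast, 1 of 9 for leukocyte and 1 of 7 for satellite cell markers. MYF5 of the satellite cell list and CD3E of the leukocyte list were below background. The part of any of these cells in the SLC38A4 difference was not tested.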

How the data were processed

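Biotin-labelled cRNA from longissimus muscle of 10 Duroc and 10 PiNN pigs was hybridized by the authors to Affymetrix Porcine Snowball arrays. The deposited values are log2 probe set signals, as processed by the authors. GCOS version 1.1.1 is named in the submitters' processing notes, and how signals were summarized and normalized is not given in the sources used here. Of 47845 probe sets, 45922 are porcine and were tested, and the remaining 1923 (controls, background and other species) were left out. A single gene symbol was given for 26058 probe sets, by an annotation that can be old, and none for 19864. All arrays were kept, and their number limits the precision.

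Each probe set was fitted with limma 3.58.1 (R 4.3.3, lmFit followed by eBayes), with breed alone in the model and two-sided tests. Adjustment was by Benjamini-Hochberg across the 45922 probe sets, and an adjusted p under 0.05 is called passing. Intervals are at 95% and come from the same fit. The ANOVA of the methods, breed being its fixed effect, was run as an alternative, as were array weights, quantile normalization, median centring, trend with robust fitting, a background filter, array background as a term, gene means and leaving out single animals. Correlations within a breed were tested with 100000 permutations. Positions and neighbours are from RefSeq (Sscrofa11.1). The transporter genes and the 11 gene lists were chosen with earlier results of these data known. Named were all probe sets of the 10 genes, up to 4 passing genes per related list (the brightest gene where none passed), the 5 genes most like SLC38A4, and passing or nearest neighbours. The procedure was tested on simulated data. Sequences of the genes or probes were not used here.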

Additional observations from a re-analysis of the deposited data

Results flagged for a closer look

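Among the 50 groups of 10 animals formed by the 25 transporter probe sets and 2 breeds, 2 had an animal that stood apart from the rest by more than Dixon's 95% limit for 10 values. Chance flags about 1 in 20 groups. In SLC3A2, Duroc animal 59 had a signal of 8.93 at SNOWBALL_025273_s_st, against 8.64 in the next Duroc animal. In SLC7A8, PiNN animal 20 had a signal of 4.02 at SNOWBALL_032781_st, against 4.36 in the next PiNN animal.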

How the results depend on the processing

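With breed as the only term 1917 probe sets passed. The count was 3135 with array weights, and it ran from 1174 (without PiNN animal 36) to 2489 (without Duroc animal 31) when single animals were left out, with 1210 without Duroc animal 46 and 1267 without PiNN animal 22. Of the 1917, 66.1% had the higher signal in Duroc, against 48.5% with the array background as a covariate and 53.9% without PiNN animal 49. The number of probe sets that passed among the 9 transporter genes other than SLC38A4 was 0. It was 1 with the ANOVA of the methods, 1 with only probe sets above background and 2 with array weights, and 0 to 2 without single animals. It was 1 without Duroc animal 31, PiNN animal 20 or PiNN animal 62, and 2 without PiNN animal 49. With the mean of all probe sets of a gene 1 gene passed, SLC3A2, against 0, and in the 20 fits without single animals, added after seeing the data, SLC3A2 passed in 8. The cause of these changes was not tested. SNOWBALL_026206_st of SLC38A1, which did not pass, turned to -0.034 with array weights and ran from -0.062 to 0.14 without single animals. SNOWBALL_013749_s_st of SLC7A1 ran from -0.016 to 0.089. Of 588 comparisons with an alternative for these 22 probe sets, 572 kept the sign and the side of the threshold. No paired analysis was possible because the animals of the breeds share no numbers.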
